A study of Mus musculus with 4 samples.

Results

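The peaks described here were called from 4 libraries that were each mapped to 2 genomes, and were found in one of the mappings only. The libraries are ChIPmentation of CTCF and of the cohesin subunit RAD21, with 2 biological replicates per antibody, taken at E12.5 from embryos that were TgN(38-40)/Wt and del(CS38-40)-/-, in the strain B6CBAF1, 4 whole limbs a sample. All 4 libraries are thus heterozygous for the TgN(38-40) transgene on chromosome 10 and lack region CS38-40 on both copies of chromosome 2. Each library was mapped by the authors to the mouse reference mm10 and to an in silico TgN(38-40) genome, called the custom genome below. On the custom genome no read was filtered out, and a read that aligned equally well at several places was given to one of them at random. Peaks were compared on the 17 autosomes other than 2 and 10, where both genomes share their coordinates. A peak was called custom-only or mm10-only if no peak of the same library in the other mapping overlapped it by 1 bp. Of 119538 peaks in the 8 lists on these autosomes, 6698 were found in one mapping only, and the 8 lists hold 140051 peaks over all sequences.

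CTCF is a zinc-finger protein that binds a long DNA motif and halts the loop-extruding cohesin ring, of which RAD21 is a subunit. Anchors of chromatin loops therefore often carry both proteins. A short read from a sequence with several identical copies cannot be placed uniquely. Signal over tandem gene clusters, satellites and telomere repeats thus depends on what is done with such reads. Satellite DNA fills the pericentromeric regions of mouse chromosomes, and chromosome ends consist of the hexamer TTAGGG.

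The deposited lists differed in size between the libraries. On the 17 autosomes, CTCF replicates 1 and 2 had 21283 and 23550 custom-genome peaks, and RAD21 replicates 1 and 2 had 3563 and 12293. The mm10 lists held 20428, 22344, 3527 and 12550 peaks, respectively. The number of reads is not given in the sources used here, so the depth behind a peak is unknown.

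Many custom-only peaks lay on telomere repeats, satellite, tandem gene clusters and other repeated sequence. In the CTCF replicates, 35.5% and 36.3% of all custom-only peaks held no repeated stretch of 50 bases. In the RAD21 replicates it was 43.8% and 29.5%. Reference sequence (mm10, plus strand unless stated) is shown for the repeated kinds other than telomere repeats. The strongest custom-only peaks of all lay on satellite sequence that also occurs on the unplaced scaffolds of the assembly. In stretches of 120 bases around the summit, capitals mark bases within 50-base words that are also found on a scaffold.
Chromosome 12 site, chr12:3109933-3110052: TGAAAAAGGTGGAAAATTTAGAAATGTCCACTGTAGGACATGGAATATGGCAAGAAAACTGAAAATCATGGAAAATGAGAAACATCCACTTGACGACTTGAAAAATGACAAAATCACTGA
Chromosome 13 site, chr13:77438898-77439017: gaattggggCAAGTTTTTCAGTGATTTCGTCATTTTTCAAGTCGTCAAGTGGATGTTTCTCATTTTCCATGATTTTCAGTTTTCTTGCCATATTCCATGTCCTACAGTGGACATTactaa

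Other custom-only peaks, with a CTCF motif, lay in tandem gene clusters and in a tandem array with no annotated gene on chromosome 6. The stretches of 59 bases below are given on the strand of the motif, which is in capitals. They come from the strongest sites with the motif in 4 of the densest clusters and, for the T cell receptor, from the strongest such site and its exact copy.
Array on chromosome 6, copy 1, chr6:47763591-47763649, minus strand: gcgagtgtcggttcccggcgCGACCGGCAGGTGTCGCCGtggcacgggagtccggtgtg
T cell receptor alpha, copy 1, chr14:52972343-52972401, plus strand: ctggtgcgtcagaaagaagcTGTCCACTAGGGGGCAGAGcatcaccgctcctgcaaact
T cell receptor alpha, copy 2, chr14:53283480-53283538, plus strand: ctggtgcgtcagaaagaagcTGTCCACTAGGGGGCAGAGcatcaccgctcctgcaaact
Interferon cluster, copy 1, chr4:88760711-88760769, minus strand: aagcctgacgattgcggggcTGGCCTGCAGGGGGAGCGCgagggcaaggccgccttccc
Mup cluster, copy 1, chr4:61193670-61193728, plus strand: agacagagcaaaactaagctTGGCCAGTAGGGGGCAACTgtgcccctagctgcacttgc
Mup cluster, copy 2, chr4:61263292-61263350, plus strand: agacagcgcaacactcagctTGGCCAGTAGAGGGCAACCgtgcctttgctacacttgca
The copies of the T cell receptor stretch had 0 differences over 59 bases. On chromosome 6 and in the interferon cluster, the 3 strongest copies were likewise identical to each other. In the Mup cluster, copies 1 and 2 differed at 18 of 59 bases, of which 2 were in the motif, while copy 1 and another copy at chr4:61484904-61484962 had 0 differences.

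Custom-only peaks were a small part of each list but a large part of its strongest peaks. In CTCF replicate 1, 1371 of 21283 custom-genome peaks (6.44%) had no mm10 peak, and in replicate 2 it was 1494 of 23550 (6.34%). In RAD21 replicate 1, 701 of 3563 peaks (19.7%) were custom-only, and in replicate 2 it was 701 of 12293 (5.70%). Among the 50 peaks with the highest -log10 q in each custom list, 31, 26, 33 and 27 were custom-only in CTCF replicates 1 and 2 and RAD21 replicates 1 and 2. The reverse counts were 523 of 20428 mm10 peaks (2.56%), 276 of 22344 (1.24%), 672 of 3527 (19.1%) and 960 of 12550 (7.65%). Among the 50 strongest peaks of each mm10 list, 1, 0, 1 and 0 were mm10-only.

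The strength of the peaks differed between both directions in all 4 libraries. The median -log10 q of custom-only peaks was 5.59 and 5.47 in the CTCF replicates and 6.29 and 6.49 in the RAD21 replicates. That of mm10-only peaks was 3.35, 3.39, 3.30 and 3.56. At a -log10 q of at least 10, custom-only peaks numbered 329, 379, 253 and 213, and mm10-only peaks 4, 0, 2 and 1. No p-value is attached to these counts, since both lists of a library come from the same reads and peaks are not replicates.

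Most custom-only peaks held at least some sequence that occurs more than once in the reference, which was measured with words of 50 bases, the read length. A peak was called multi-copy if at least 50% of its words occur exactly at another place on either strand. Over all custom-genome peaks, 2.94%, 2.76%, 4.94% and 2.33% were multi-copy in CTCF replicates 1 and 2 and RAD21 replicates 1 and 2. Among custom-only peaks the share was 40.1%, 38.2%, 22.8% and 36.8%. Among custom-genome peaks found in both mappings it was 0.382%, 0.358%, 0.559% and 0.242%, and among mm10-only peaks it was 0.382%, 1.09%, 0.446% and 0.521%. In all 4 libraries the custom-only share was above both others, and its lowest value, 22.8%, compares with 1.09% as the highest of the others. At least one repeated word was present in 64.4%, 63.7%, 55.9% and 70.3% of the custom-only peaks. For custom-genome peaks found in both mappings it was 4.89%, 5.35%, 4.93% and 4.37%.

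Repeat-masked sequence, the part of the assembly in lower case, was also more common in custom-only peaks. At least 50% of the bases were masked in 32.1%, 35.9%, 38.1% and 37.1% of them. The share was 8.32%, 10.7%, 2.24% and 3.14% in custom-genome peaks found in both mappings. For mm10-only peaks it was 20.3% and 24.3% in the CTCF replicates and 3.27% and 9.48% in the RAD21 replicates. Custom-only peaks were shorter, with a median length of 183 and 178 bp in the CTCF replicates against 293 and 273 bp for peaks found in both mappings.

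The CTCF motif was less common in custom-only peaks. A motif model of 19 bases, with the consensus NNGCCACNAGGGGGCGCNN, was searched on both strands within 50 bp of the summit, at a threshold that 5% of windows shifted by 400 bp pass. It was found in 37.9% and 45.0% of the custom-only peaks of the CTCF replicates, against 59.6% and 74.6% of the peaks found in both mappings. In the RAD21 replicates the shares were 18.4% and 29.1% against 50.1% and 62.9%. The mm10-only peaks were intermediate, with 41.7%, 53.3%, 43.6% and 46.5%. A match is a description of the sequence and does not show binding.

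**Figure D1:**
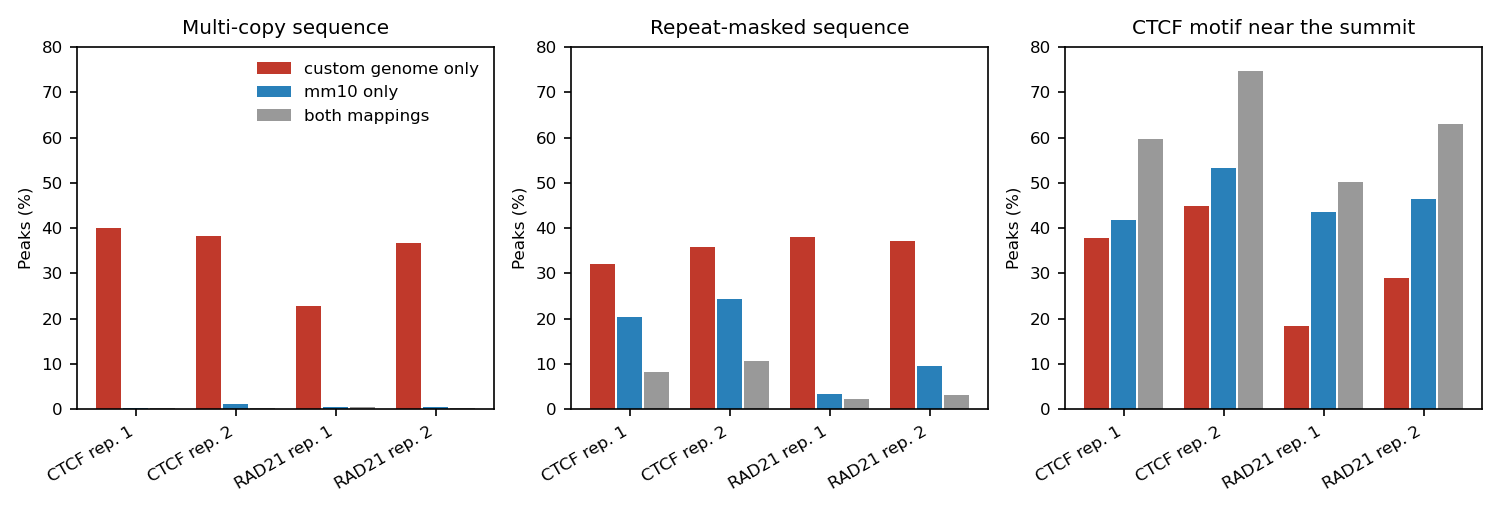
Share of peaks (%) in multi-copy sequence, in repeat-masked sequence and with a CTCF motif, by library. Red bars are custom-only peaks, blue bars mm10-only peaks and grey bars custom-genome peaks found in both mappings. Red bars are highest for multi-copy and masked sequence in all 4 libraries and lowest for the motif.

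Custom-only peaks were then sorted by where the copies of their sequence lie, in classes set after the data were seen. Peaks covered to at least 20% by the telomere hexamer numbered 126, 117, 132 and 113 in CTCF replicates 1 and 2 and RAD21 replicates 1 and 2. Peaks sharing words with mitochondrial DNA numbered 8, 12, 13 and 2. Peaks sharing words with scaffolds numbered 137, 157, 53 and 85. Multi-copy peaks with all copies of the word at the summit within 1 Mb, called local duplications below, numbered 257, 247, 57 and 125. Other multi-copy peaks numbered 170, 182, 38 and 53, and peaks with less than 50% repeated words 186, 237, 101 and 116. The remaining 487, 542, 307 and 207 peaks had no repeated word. The number of telomere-repeat peaks was thus similar in the 4 libraries, although their lists differ in size. Local duplications made up 18.7%, 16.5%, 8.13% and 17.8% of the custom-only peaks.

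**Figure D2:**
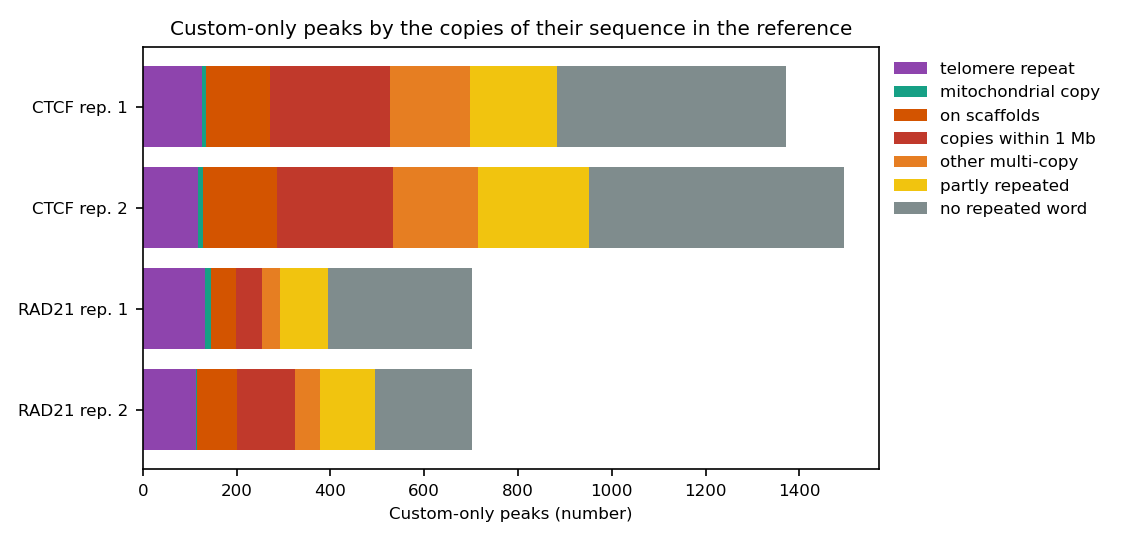
Number of custom-only peaks per library, stacked by the copies of their sequence in the reference. The telomere-repeat part has a similar width in all libraries, between 113 and 132 peaks, while the part with copies within 1 Mb is widest in the CTCF libraries.

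The word at the summit occurred once in 720 of the 1371 custom-only peaks of CTCF replicate 1, at 2 places in 217, at 3 to 10 places in 229, at 11 to 100 places in 115 and at more than 100 in 90. Replicate 2 had 832, 224, 217, 129 and 92 peaks in these bins. RAD21 replicate 1 had 414, 59, 87, 48 and 93, and replicate 2 had 338, 107, 115, 58 and 83.

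Both copies of a duplicated sequence usually carried a peak of similar height. In CTCF replicate 1, 196 custom-only peaks had a summit word with exactly one other copy on the 17 autosomes, and that copy lay in a custom-genome peak in 131 cases (66.8%). The other libraries gave 140 of 204 (68.6%), 31 of 43 (72.1%) and 70 of 99 (70.7%). The larger fold enrichment of such a pair was a median of 1.15 times the smaller in CTCF replicate 1, over 86 pairs, 1.21 times in replicate 2, over 85, and 1.15 times in RAD21 replicate 2, over 47. RAD21 replicate 1 had 18 pairs and a median of 1.52. The copies lay on the same chromosome in 175 of the 196 cases in CTCF replicate 1, at a median distance of 108 kb. Random placement of reads divides them between identical copies, so a similar fold at both does not show that both were bound.

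At peaks found in both mappings, the fold was nearly the same where no word was repeated. The median ratio of the custom-genome to the mm10 fold was 0.992 and 0.990 in the CTCF replicates and 0.968 and 0.993 in the RAD21 replicates. Where at least 50% of the words were repeated, it was 1.12 over 73 peaks and 1.22 over 76 peaks in the CTCF replicates, and 0.925 over 14 and 0.940 over 27 in the RAD21 replicates. Ratios above 1.5 were found in 13.7% and 21.1% of these CTCF peaks, compared with 0.0317% and 0.0767% of those with no repeated word.

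Many custom-only sites recurred between libraries. Merged over the 4 libraries, custom-only peaks formed 2791 sites. Of these, 648 were custom-only in both CTCF replicates, 268 in both RAD21 replicates and 225 in all 4 libraries, while 1986 were custom-only in a single library. Of the 1371 custom-only peaks of CTCF replicate 1, 659 (48.1%) were custom-only in replicate 2, and 655 of 1494 (43.8%) the other way round. For RAD21, the shares were 39.4% and 38.9%. By contrast, 14 of 523 mm10-only peaks (2.68%) of CTCF replicate 1 were mm10-only in replicate 2, and 7 of 672 (1.04%) in the RAD21 pair. A CTCF motif was found at 261 of the 648 sites custom-only in both CTCF replicates, but at only 4 of the 225 sites custom-only in all 4 libraries.

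The classes recurred to different degrees. Of 138 telomere-repeat sites, 105 were custom-only in all 4 libraries. Of 224 sites shared with scaffolds, it was 35, of 345 local duplications 19, and of 1385 sites with no repeated word 21. Conversely, 188 local duplications were custom-only in both CTCF replicates, and 100 of these had no RAD21 peak in either custom list. Of the other multi-copy sites, 106 were custom-only in both CTCF replicates, and 72 of these had no RAD21 peak. A lack of RAD21 was also common among custom-genome CTCF peaks found in both mappings. Only 50.9% and 48.5% of those in replicates 1 and 2 overlapped a custom-genome peak of RAD21 replicate 2. Of the 188 local duplications, 108 (57.4%) carried the CTCF motif, as did 71 (67.0%) of the 106 other multi-copy sites. The motif was found at 0 of the 112 telomere-repeat sites that were custom-only in both CTCF replicates.

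Telomere-repeat peaks were the highest class in every library. Their median -log10 q was 18.2 and 15.3 in the CTCF replicates and 22.4 and 17.6 in the RAD21 replicates. None had a CTCF motif, and the word at the summit of those at the ends of chromosomes 1, 3 and 16 occurs at 1092 places on 21 chromosomes. Of the custom-genome peaks found in both mappings, only 1 in CTCF replicate 1 and 1 in RAD21 replicate 1 met the same limit for the hexamer. A peak on telomere repeats was found within 1 kb of the last assembled base on 15 of the 17 autosomes in each library, the exceptions being chromosomes 4 and 9. Their fold enrichment ranged from 6.44 to 32 in CTCF replicate 1, from 7.06 to 32.6 in replicate 2, from 9.13 to 33.2 in RAD21 replicate 1 and from 7.03 to 30.5 in replicate 2.

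The ends differed from each other by more than the libraries did. At the end of chromosome 3, 0.7 kb from Wls, a transporter of Wnt proteins, the -log10 q was 136, 127, 123 and 132 in CTCF replicates 1 and 2 and RAD21 replicates 1 and 2. At the end of chromosome 16 it was 126, 107, 127 and 125, and at the end of chromosome 1 it was 117, 99.6, 122 and 104. At the end of chromosome 15, the lowest, it was 6.63, 7.74, 10.5 and 7.44. The ranges of CTCF and RAD21 overlapped at these 4 ends. RAD21 lay above CTCF at the end of chromosome 17, with 48.3 and 35.8 against 32.6 and 26.4, and by a smaller margin at the end of chromosome 19, with 112 and 111 against 110 and 99.3. At the other ends they overlapped. At the end of chromosome 18, a peak with a -log10 q of 92.7 in RAD21 replicate 1 was also found on mm10, while the other 3 libraries were custom-only there, at 109, 92.1 and 106. The input libraries were not analysed here, since they have no peak list, so how much of these peaks is present without an antibody was not tested.

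**Figure D3:**
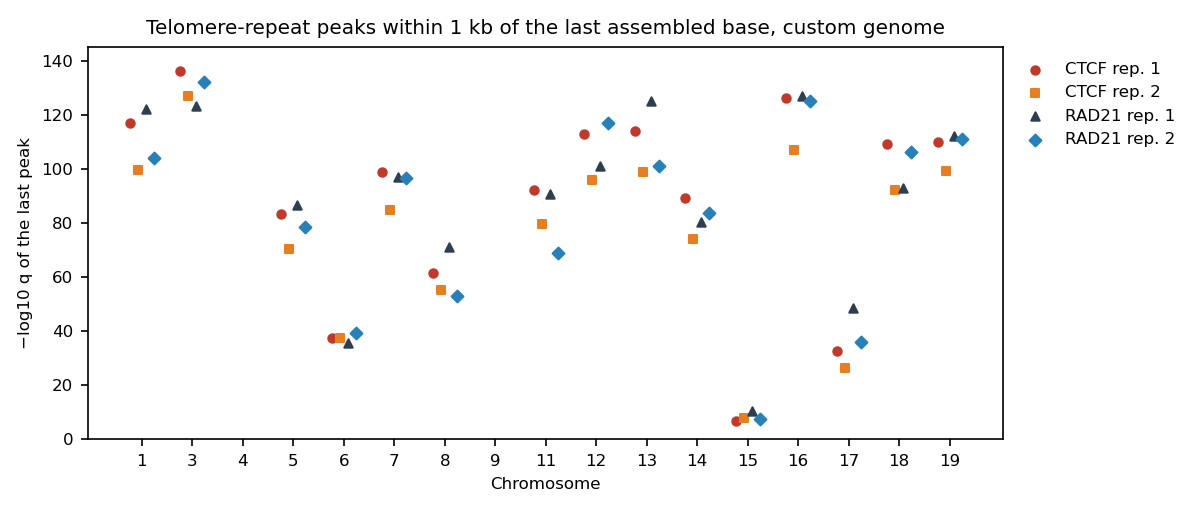
The -log10 q of the custom-genome peak on telomere repeats within 1 kb of the last assembled base of each autosome, 1 point per library. The 4 libraries lie close together at each end, between about 6.63 at chromosome 15 and 136 at chromosome 3, and chromosomes 4 and 9 have no such peak.

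Peaks on telomere repeats were also called inside chromosomes, with a lower median -log10 q than at the ends. Random placement divides reads between identical copies. A peak on telomere repeats, inside a chromosome or at its end, thus does not show where its reads came from. Of the telomere-repeat sites, 111, 101, 117 and 98 lay more than 1 kb from a chromosome end in CTCF replicates 1 and 2 and RAD21 replicates 1 and 2. Their median -log10 q was 15.8, 13.9, 20.5 and 15.0. The strongest, on chromosome 14 at chr14:86198919-86199216, lies 456.2 kb from Diaph3, which encodes a formin. Its -log10 q was 95.0, 75.7, 93.6 and 84.2, within the range of the chromosome ends.

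Among custom-only peaks, a pair of sites on satellite sequence had the highest -log10 q. The exception was RAD21 replicate 2, where the end of chromosome 3, at 132, lay above the second of them, at 130. Custom-genome peaks found in both mappings reached 237 and 250 in the CTCF replicates and 200 and 248 in the RAD21 replicates. The site at chr12:3109795-3110183, 137.2 kb from Rab10, a small GTPase gene, had a fold enrichment of 38.2, 37.4, 37.7 and 34.7 in CTCF replicates 1 and 2 and RAD21 replicates 1 and 2. Its -log10 q was 272, 261, 242 and 250. The word at its summit occurs at 92 places, 49 of them on scaffolds. The site at chr13:77438827-77439122, in an intron of 2210408I21Rik, had folds of 34.1, 37.0, 38.4 and 32.6 and a -log10 q of 147, 142, 146 and 130, with 85 places of which 63 are on scaffolds. Neither had a CTCF motif or a peak in any mm10 list. By fold the ranges of CTCF and RAD21 overlapped at both sites, and by -log10 q CTCF was higher at the chromosome 12 site. The next strongest sites custom-only in both CTCF replicates were the ends of chromosomes 3, 16, 1, 19, 13, 12, 18 and 7. In RAD21 the leading sites after these satellites were the ends of chromosomes 16, 3 and 19.

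On the scaffolds themselves the custom lists hold 0 peaks, and the mm10 lists hold 23, 18, 12 and 14 peaks, with a fold of up to 21.4 in CTCF replicate 1. Whether the custom genome contained the scaffolds is not given in the sources used here.

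Nuclear copies of mitochondrial DNA formed 9 custom-only sites on 5 chromosomes. Of these, 4 lay in a single stretch at chr1:24611661-24616115, which matches 27.3% of the 16299 bases of the mitochondrial genome. This stretch held 5, 7, 8 and 1 peaks in the custom lists and 0 in each mm10 list. The fold of these peaks was between 2.54 and 3.34 in CTCF replicate 1 and between 2.17 and 2.91 in RAD21 replicate 1. A shorter copy at chr12:97061409-97061798 was stronger, with a -log10 q of 24.5, 37.6, 39.5 and 15.2 in the 4 libraries. On mitochondrial DNA itself, the custom lists held 5, 3, 4 and 2 peaks and the mm10 lists 13, 11, 15 and 10. Hence the mm10 lists had more peaks on the mitochondrial genome and none on its nuclear copy on chromosome 1.

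Sites custom-only in both CTCF replicates were clustered. They lay in 341 windows of 1 Mb, and 52 windows with at least 3 sites held 318 of the 648 sites (49.1%). The 5 densest windows are described in order.

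On chromosome 9, 19 sites lay between chr9:3003331 and chr9:3258981, 17 of them in sequence shared with scaffolds and 0 with a CTCF motif. They overlap Gm26870 and predicted genes such as Gm10717, Gm10718 and Gm10719 next to the centromere. RAD21 peaks covered 18 of these sites in replicate 1 and 15 in replicate 2. In CTCF replicate 1 the fold was between 1.66 and 2.91 at all but the last site. That site, chr9:3258761-3258981, had a fold of 11.3, lies 220715 bp from its neighbour by the summits and holds no repeated word. The mm10 lists of CTCF replicates 1 and 2 had 6 and 6 peaks in the same stretch, against 28 and 26 in the custom lists. These mm10 peaks were fewer but had folds of at least 6.38 and 5.85, above the custom-genome folds at all but the last site. RAD21 replicates 1 and 2 had 8 and 5 mm10 peaks there.

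On chromosome 14, 18 sites spread over 703 kb among the variable segments of the T cell receptor alpha locus (Trav genes), which encode the antigen-binding part of the receptor in T cells. The motif was present at 14 sites, on the plus strand at 13. The mm10 lists of CTCF replicates 1 and 2 had 6 and 7 peaks in the same stretch, against 25 and 29 in the custom lists. RAD21 had 0 peaks at these sites in replicate 1 and 2 in replicate 2. At Trav3n-3, the fold was 9.53 and 12.8 in the CTCF replicates and 6.45 in RAD21 replicate 2. At its identical copy in the neighbouring window, shown above as copy 1, the fold was 7.58 and 14.4, so that neither copy was the higher one in both replicates. That window held a further 8 sites, between chr14:52709630 and chr14:52983335.

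On chromosome 4, 16 sites followed each other over 51.5 kb at a median spacing of 2922 bp around Ifnz, which encodes an interferon, and predicted genes such as Gm13276, Gm13283 and Gm13290. The motif was found at 11 of them, always on the minus strand. Every CTCF peak of this stretch was custom-only, with 16 peaks in the custom list of each replicate and 0 on mm10. The fold ranged from 3.84 to 8.01 in replicate 1 and from 5.16 to 9.70 in replicate 2. Only 1 site, at Gm13288, had a RAD21 peak, in replicate 2 with a fold of 4.79.

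On chromosome 6, 16 sites formed a regular array over 118 kb at a median spacing of 4336 bp, interrupted by a gap of 54645 bp between summits. GENCODE annotates no gene in the array, which lies between Gm25283 and Rny3, a Y RNA gene. CTCF fold ranged from 4.13 to 9.40 in replicate 1 and from 5.49 to 12 in replicate 2, and 6 sites carried the motif on the minus strand. RAD21 replicate 1 had a peak at all 16 sites, but replicate 2, whose list is larger, at only 1. The last site, chr6:47771938-47772499, was the highest in both CTCF replicates, with folds of 9.40 and 12, and had 6.48 and 5.24 in RAD21. The mm10 lists held 0 CTCF peaks and 1 RAD21 peak, in replicate 1.

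Also on chromosome 4, 11 sites lay over 754 kb among the major urinary protein genes (Mup genes), which encode pheromone carriers secreted by the liver. Of these, 9 had the motif, on the plus strand at 8. At chr4:61263170-61263578 the fold was 9.27 and 16.5 in the CTCF replicates and 10.3 in RAD21 replicate 2. At chr4:61193527-61193825 it was 7.51 and 9.39, with no RAD21 peak. The window next to it, between chr4:60105204 and chr4:60787200, held another 10 sites, 9 with the motif, all on the plus strand.

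**Figure D4:**
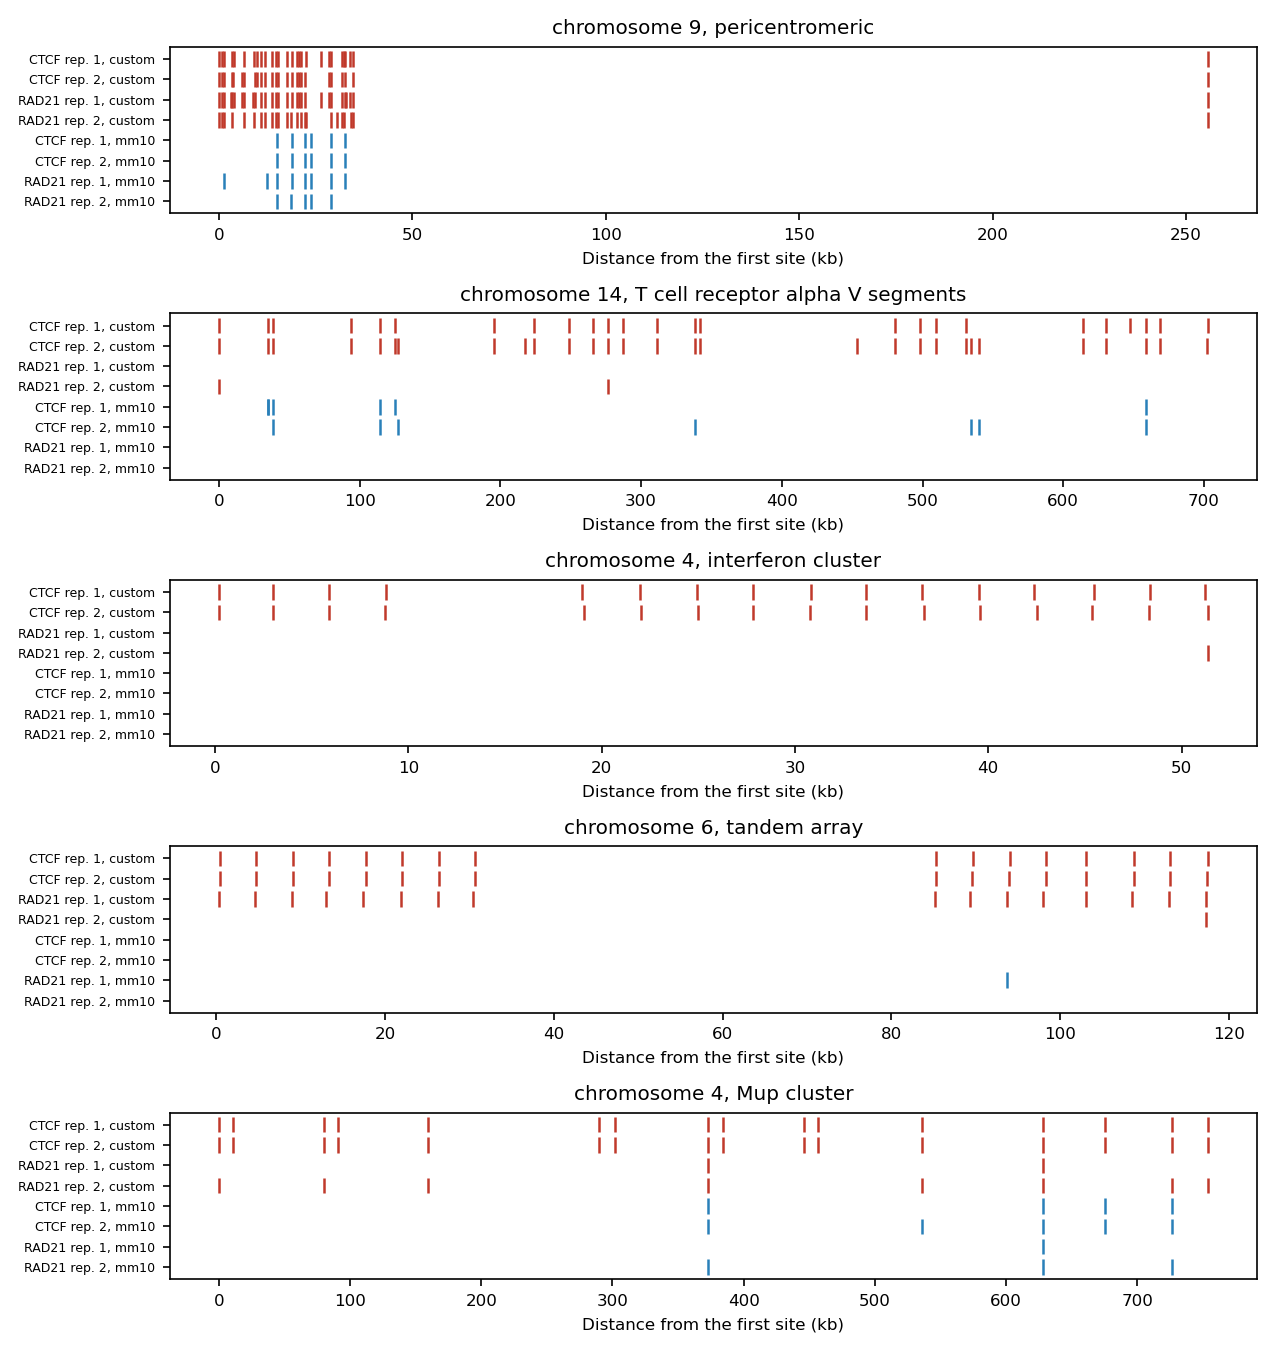
Peaks in the 5 densest windows of sites custom-only in both CTCF replicates. Each row is a library and a mapping (red, custom genome; blue, mm10), each tick is the summit of a peak, and the horizontal axis is the distance in kb from the first site. The interferon cluster has 16 red ticks in each CTCF row and no blue tick, and the array on chromosome 6 has its red ticks in 2 regular blocks.

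On chromosome 14, predicted genes such as Gm3115 and Gm3149 lay in a window with 9 sites, 7 with the motif, between chr14:4019574 and chr14:4969383. The next window, with Gm3298 and Gm3326, also held 9 sites, 8 with the motif. Chemokine genes such as Ccl21b, Ccl27b and Ccl19, with Il11ra2, lay in a window of chromosome 4 with 9 sites, of which 9 had the motif. A window around Entpd4, Entpd4b and Loxl2 on chromosome 14 held 10 sites. Loxl2 encodes a lysyl oxidase and Entpd4 a nucleotide-hydrolysing enzyme.

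Among the gene families searched, antigen receptor segments had the highest count. Of the 648 sites custom-only in both CTCF replicates, 28 (4.32%) lay within 10 kb of such a segment, compared with 38 of the 22056 peaks of CTCF replicate 2 found in both mappings (0.172%). Chemokine (Ccl) genes had 6 (0.926%) against 7 (0.0317%), and Speer genes, which encode sperm proteins, 2 against 0. Vomeronasal receptor genes had 3 Vmn2r sites (0.463%) against 9 peaks (0.0408%) and 2 Vmn1r sites (0.309%) against 8 peaks (0.0363%). Olfactory receptor (Olfr) genes had 1 site (0.154%) against 84 peaks (0.381%), and zinc finger (Zfp) genes 7 (1.08%) against 248 (1.12%). Hox, keratin (Krt) and protocadherin (Pcdh) genes had 0 sites, where the shares over peaks found in both mappings, 0.0680%, 0.0816% and 0.104%, would give less than 1, so these zeros carry no information. MicroRNA genes had 24 sites (3.70%) against 635 peaks (2.88%), near the background. Within 10 kb of antigen receptor segments, 1 of the 268 sites custom-only in both RAD21 replicates (0.373%) was found. The share over RAD21 peaks found in both mappings was not counted, so this count cannot be read as high or low. The Mup cluster is counted by 2 sites only, since most of its sites lie more than 10 kb from a Mup gene. These are counts with no test.

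Grouped by shared words of 50 bases, 709 of the 2791 sites fell into 77 groups of at least 3. The largest group was the telomere repeat, with 136 sites on 17 chromosomes. The second had 53 sites on 15 chromosomes, of which 50 matched scaffolds and 23 had the motif. It comprised 40 custom-only sites in each CTCF replicate, 0 in RAD21 replicate 1 and 25 in RAD21 replicate 2. It is shown by its strongest site with the motif, in capitals, where the fold was 9.59 and 14 in the CTCF replicates.
Second group, chr12:23597954-23598012, minus strand: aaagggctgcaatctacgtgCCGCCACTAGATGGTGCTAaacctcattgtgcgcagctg

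The third group had 41 sites on chromosome 14, between chr14:3050068 and chr14:19584263, with the motif at 36 of them. It had 36 and 38 custom-only sites in the CTCF replicates, 0 in RAD21 replicate 1 and 6 in replicate 2. The fourth group, 40 sites on 5 chromosomes with 33 on chromosome 9, held the satellite of chromosomes 12 and 13 shown above. It had no motif and 28, 28, 36 and 26 custom-only sites in CTCF replicates 1 and 2 and RAD21 replicates 1 and 2. The fifth group, 37 sites on 15 chromosomes, was a short tandem repeat without the motif, with 19, 28, 12 and 22 sites. The site shown, the strongest by the lower of both CTCF values, had a -log10 q of 29.7, 34.2, 36.4 and 37.4, and capitals mark CTGTG or CACAG.
Short tandem repeat, chr13:74530494-74530613: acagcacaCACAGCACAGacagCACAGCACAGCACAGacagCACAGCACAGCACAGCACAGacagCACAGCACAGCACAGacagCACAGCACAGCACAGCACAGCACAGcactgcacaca
Among these 5 groups, those with the motif had 0 custom-only sites in RAD21 replicate 1. Those without it had 129 of 136, 36 of 40 and 12 of 37. In RAD21 replicate 2 the difference was smaller for the second group. There the groups with the motif had 25 of 53 and 6 of 41 sites, and those without it 111 of 136, 26 of 40 and 22 of 37. Smaller groups did not all follow this. The array on chromosome 6, a group of 17 sites with the motif at 6, had 16 custom-only sites in RAD21 replicate 1.

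Custom-only peaks with no repeated word were weaker, and many lay on an mm10 peak of the other replicate. Their median -log10 q was 3.79, 3.84, 3.53 and 4.12 in CTCF replicates 1 and 2 and RAD21 replicates 1 and 2, close to the mm10-only peaks. In CTCF replicate 1, 47.4% of them overlapped an mm10 peak of the other replicate, compared with 3.50% of local duplications and 0% of telomere-repeat peaks. In CTCF replicate 2 it was 31.9%, 2.43% and 0.855%. In RAD21 replicate 1, 77.9% overlapped an mm10 peak of replicate 2, whose list is larger, and in RAD21 replicate 2 it was 3.86%. All of these lay below the shares of peaks found in both mappings, which were 89.7%, 81.4%, 95.0% and 28.7%. The motif was found in 44.4% and 49.8% of them in the CTCF replicates.

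A few of these peaks were strong in every library. At chr19:23357350-23357588, in Mamdc2, the -log10 q was 53.5, 49.8, 69.8 and 53.5, and the fold 21.1, 21.8, 27.7 and 23.1. At chr3:56575394-56575802, 391.7 kb from Nbea, the -log10 q was 37.7, 52.7, 45.1 and 32.8 and the fold 16.1, 20.7, 19.5 and 15.6. Neither had a CTCF motif. The RAD21 folds lay above both CTCF folds at the first site, and the ranges overlapped at the second. Masked sequence covered 60.9% and 100% of these sites.

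**Figure D5:**
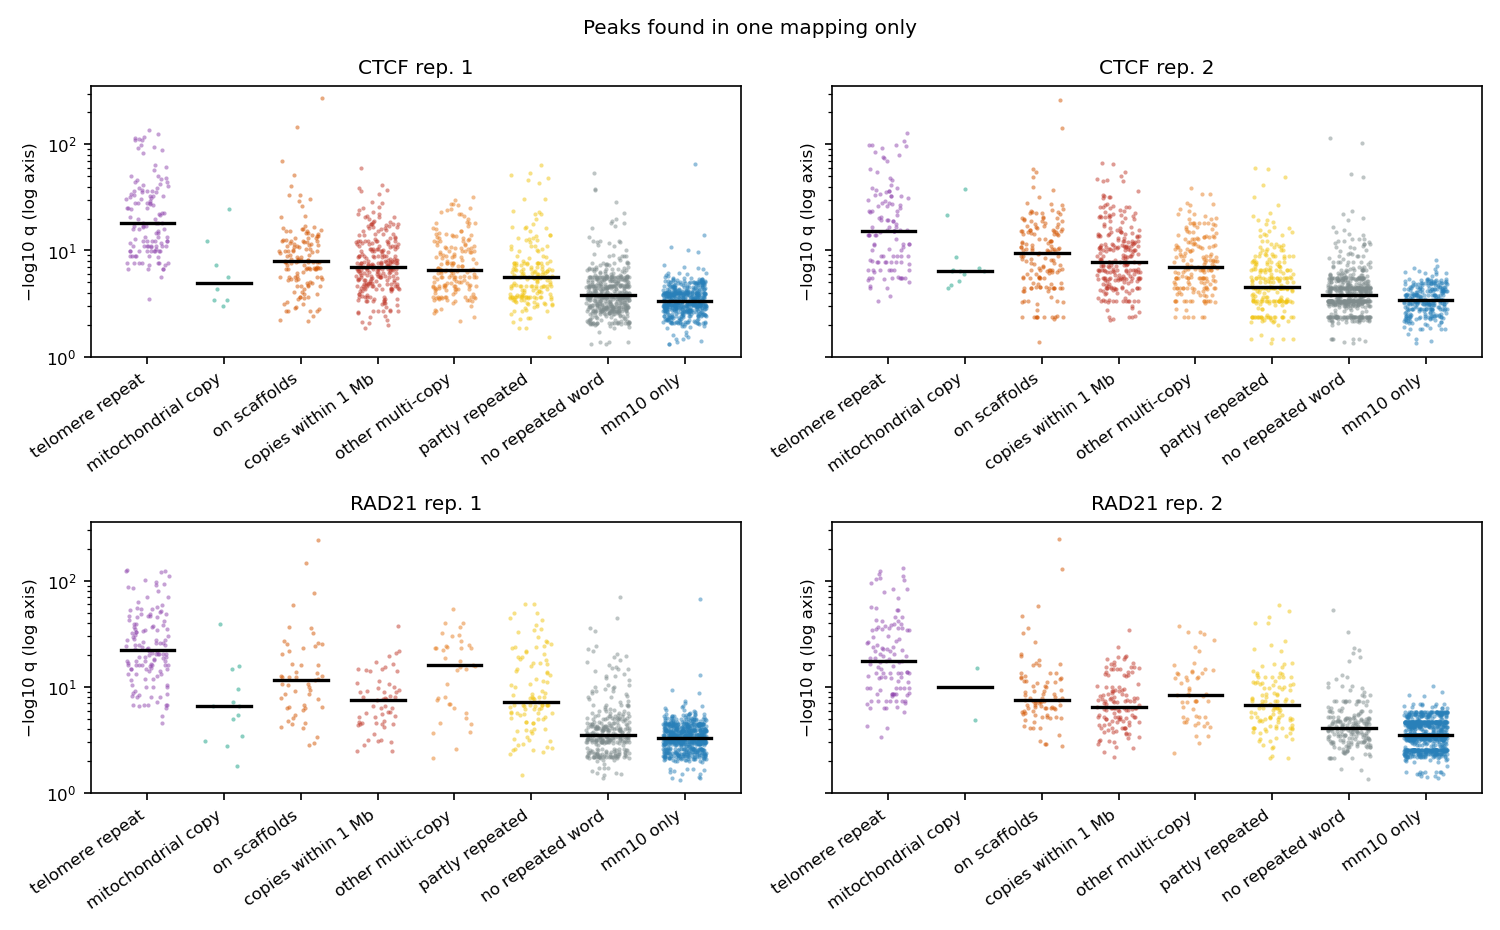
The -log10 q (log axis) of every peak found in one mapping only, by class and library. Points are peaks and black lines medians. Telomere-repeat peaks have the highest median in every library, and custom-only peaks with no repeated word have medians between 3.53 and 4.12, close to those of the mm10-only peaks at 3.30 to 3.56.

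Custom-only peaks were placed nearer to chromosome ends than the others. Within 1 Mb of either end of the assembled sequence lay 8.90%, 8.70%, 14% and 12.1% of them in CTCF replicates 1 and 2 and RAD21 replicates 1 and 2. For custom-genome peaks found in both mappings the share was 1.58%, 1.54%, 1.64% and 1.51%. The mm10-only peaks lay in between, with 3.44%, 5.43%, 2.53% and 2.19%. In CTCF replicate 1, 77 of these 122 custom-only peaks lay in the first 1 Mb, at the centromere of the acrocentric mouse chromosomes, and 45 in the last. Promoters of protein-coding genes, taken as 1 kb on either side of the start, held 6.64% and 5.96% of custom-only peaks in the CTCF replicates and 8.27% and 8.09% of the peaks found in both mappings. Intergenic peaks made up 49.3% and 49.1% against 40.5% and 40.2%.

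The mm10-only peaks were rarely mm10-only in another library. Of 2374 merged mm10-only sites, 2325 were mm10-only in a single library, 14 in both CTCF replicates, 7 in both RAD21 replicates and 2 in all 4. In CTCF replicates 1 and 2 and RAD21 replicates 1 and 2, 52.2%, 38.8%, 94.8% and 1.15% of them overlapped a peak of the other replicate's mm10 list. For custom-genome peaks found in both mappings these shares were 89.7%, 81.4%, 95.0% and 28.7%, so that mm10-only peaks of RAD21 replicate 1 were at the general share and those of the other libraries below it. Of the 14 CTCF sites, 5 had the motif. The site with the highest lower value was in pericentromeric sequence at chr9:3027034-3027185, in Gm26870 and Gm10717, inside the densest custom-only window. Its -log10 q on mm10 was 10.7, 8.20, 13 and 10.2, and no custom list had a peak there. At chr1:171069639-171069867 it was 13.9 and 6.06 in the CTCF replicates and 4.50 in RAD21 replicate 1. At chr3:144723565-144723712 it was 5.42 and 5.12 in the CTCF replicates only. In RAD21 the other leading sites were chr11:3142528-3142738 in Sfi1, a centrosomal gene, with 6.57 and 5.68, and chr13:119597781-119598084 in Tmem267, with 5.30 and 4.26, the latter also mm10-only in both CTCF replicates at 5.15 and 3.57. In contrast to custom-only peaks, 0.382% to 1.09% of mm10-only peaks were multi-copy and none was covered to 20% by telomere repeats. Within single libraries, the highest -log10 q of an mm10-only peak was 65.8 and 8.20 in the CTCF replicates and 67.8 and 10.2 in the RAD21 replicates.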

How the data were processed

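The samples are CTCF and RAD21 ChIPmentation of TgN(38-40)/Wt; del(CS38-40)-/- limbs. The authors sequenced 50 bp single-end reads, mapped them either to the TgN(38-40) custom genome, keeping all reads, or to mm10, and ran MACS2 with its default parameters separately for each replicate. The reads kept for mm10 follow an earlier protocol of the authors and are not given in the sources used here. The submitters' processing notes list MACS2 2.1.1.20160309, cutadapt 1.16 and Bowtie2 2.3.4.1. The deposited lists give for each peak its summit, a fold enrichment (a ratio of observed to expected pileup there), p-values and q-values as -log10, and a score derived from q. MACS2 keeps peaks at q-values under 0.05 by default. The control used by MACS2 and the read depth are not given in the sources used here, so the precision of a fold is unknown, and folds were set side by side without a test.

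The lists of a library were compared by overlap of at least 1 bp. Both replicates of an antibody are biological, and values are given for each. The wild-type RAD21 list was not used. The reference is GRCm38 from RefSeq, with soft masking, and 44 unplaced or unlocalised scaffolds. Genes are from GENCODE M21. Exact words of 50 bases (36 as an alternative) were counted on both strands over the whole reference. The sequence of the custom genome did not enter these counts, so its copies on chromosomes 2 and 10 are not counted, and the reference is of another strain than B6CBAF1, whose copy numbers were not measured. The CTCF motif model was built on 2000 CTCF peaks of replicate 2, skipping the strongest 100, and its share of motifs in that library is therefore not independent. The authors' peaks on chromosome X, chromosome Y, mitochondrial DNA and scaffolds enter only where stated. Some sequences are not reported here.

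The members, lists and word classes were chosen with earlier results of these data known. Sites were named by rule: the 10 strongest custom-only sites in both CTCF replicates, by the lower -log10 q, the 5 strongest in RAD21, the 10 strongest in all 4 libraries, the 3 strongest mm10-only sites per antibody, the 5 densest windows and the 5 largest word groups. The other windows, mitochondrial copies and strong sites with no repeated word were chosen after their values were seen. The word counts, overlaps and motif search were tested on simulated data, where the copy number was right in 100% of 200 planted segments and planted motifs were found in 100% of 600 sequences. The software was numpy 2.4.6, pandas 2.3.3, numba 0.67.0 and matplotlib 3.10.9 in Python 3.11.15.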

Additional observations from a re-analysis of the deposited data

How the results depend on the processing

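Each custom list was compared with the mm10 list of the same library, and every result is a count or a share with no test. In the order CTCF replicates 1 and 2 and RAD21 replicates 1 and 2, custom-only peaks fell from 1371, 1494, 701 and 701 to 770, 814, 408 and 465 at a -log10 q of at least 5, and to 329, 379, 253 and 213 at 10. The mm10-only peaks fell from 523, 276, 672 and 960 to 47, 28, 39 and 117 at 5, and to 4, 0, 2 and 1 at 10. With a reciprocal overlap of 50%, mm10-only peaks of CTCF replicate 1 rose to 811. The other counts under this overlap, and those where a peak within 200 bp counted as found, stayed within 1.5 times. The multi-copy share rose to 64.4%, 63.7%, 55.9% and 70.3% where any repeated word counted. With words of 36 bases it was 48.1%, 46.2% and 33.2% in CTCF replicates 1 and 2 and RAD21 replicate 1. The masked share by the summit base was 37.3%, 41.2%, 42.8% and 43.9%. Sites custom-only in both replicates numbered 648 for CTCF and 268 for RAD21, against 1359 to 1484 and 689 to 695 with a replicate left out. Without the telomere-repeat sites, an alternative chosen after seeing the data, RAD21 kept 157. The read depth of the libraries is unknown, which limits how a peak missing from a list can be read.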

Other observations

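Peaks on sequences outside the comparison also differed between the mappings. On chromosome Y, the custom lists held 37, 38, 17 and 12 peaks in CTCF replicates 1 and 2 and RAD21 replicates 1 and 2, and the mm10 lists 13, 14, 4 and 2. Custom-only peaks were 64.9%, 65.8%, 76.5% and 83.3% of the custom-genome peaks there. On chromosome X, the custom lists held 402, 562, 29 and 259 peaks, of which 64, 76, 17 and 30 were custom-only, and the mm10 lists held 347, 495, 18 and 302. The X chromosome of RAD21 replicate 2 thus had fewer peaks in the custom list than in the mm10 list, unlike the other 3 libraries. The same direction was seen on the 17 autosomes of this library, with 12293 custom-genome against 12550 mm10 peaks.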
